A study of Mus musculus with 4 samples.

Results

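The genes described here are the TAM receptors Axl, Tyro3 and Mertk, their ligands Gas6 and Pros1, and 4 further genes of apoptotic-cell uptake: Mfge8, Lrp1, Stab1 and Cd36. They were chosen by symbol, and each symbol matched 1 Ensembl identifier among the 38293 gene rows of the count files. All 9 were among the 14330 genes with enough reads to be tested. RNA was sequenced from mammary tumours of FVB mice with the MMTV-Neu transgene, in which a mammary tumour virus promoter drives the Neu (Erbb2) oncogene in mammary epithelium. The WT group (AXL+/+) and the AXL KO group (AXL-/-) each held 2 tumour libraries, and both groups carried the Neu transgene. The sources used here give neither the age of the mice, nor the way in which Axl was disrupted, nor whether the tumours of a group came from separate animals. Spread, on which each interval and p-value rests, is therefore that between these libraries and may be technical. The tests share it across genes, so an SE is not the scatter of the gene's own libraries alone. The comparison asks whether the other TAM genes or uptake receptors stood higher in tumours without AXL.

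TAM receptors are tyrosine kinases that bind phosphatidylserine on dying cells through a bridging ligand. GAS6 binds all members of the family, whereas protein S, encoded by Pros1, binds TYRO3 and MERTK. In macrophages MERTK and AXL drive the uptake of apoptotic cells and dampen interferon and cytokine signalling, and in mammary epithelium MFG-E8 and MERTK take part in clearing dying cells after lactation. In tumours AXL is best known for its link to invasion and drug resistance.

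The 3 receptors are paralogs, so reads of one could in principle be counted for another. The following 60 coding bases of each receptor are shown because they hold the longest run that Axl and Mertk share, in the part of the kinase domain that carries the ATP-binding lysine. Capitals mark the 28 bases that are identical in all 3 genes. Sequences were read 5′ to 3′ on the coding strand from GENCODE M21 transcripts (build GRCm38).
Axl: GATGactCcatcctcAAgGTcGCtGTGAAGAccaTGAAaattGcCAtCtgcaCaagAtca
Tyro3: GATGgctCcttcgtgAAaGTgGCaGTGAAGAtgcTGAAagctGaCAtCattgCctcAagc
Mertk: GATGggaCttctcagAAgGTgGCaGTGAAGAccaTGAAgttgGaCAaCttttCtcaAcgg

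In each receptor the first 40 of these bases end an exon and the last 20 open the next one. For Axl they lie on the minus strand at chr7:25766518-25766557 in exon 14 and chr7:25764495-25764514 in exon 15 of 20. For Tyro3 they lie on the plus strand at chr2:119810902-119810941 and chr2:119811598-119811617, and for Mertk on the plus strand at chr2:128779833-128779872 and chr2:128782523-128782542, in exons 13 and 14 of 19 in both genes. In this window Tyro3 matched Axl at 37 and Mertk at 35 of the 60 bases. Over the whole coding sequence, the longest run shared by any pair of the 3 receptors was 14 bases. The longest run that the coding sequence of Axl shared with any other annotated transcript, on either strand, was 22 bases, with Hsd3b2. For Gas6 it was 37 bases, with Tmem255b, which overlaps Gas6 on the opposite strand.

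Library depth ran from 18929743 to 33131739 reads in genes. WT replicate 2 stood apart from the other libraries: over genes, its chi-square statistic per degree of freedom against each of them was 140 to 165, against 32.6 to 59.4 among the other 3. The description of AXL KO replicate 2 carries another prefix than those of the other 3 libraries, and values without that library are therefore the values within the first prefix. The epithelial marker Epcam was at 966 to 1342 CPM (read counts scaled to library size with edgeR's TMM factors), and Cdh1 at 341 to 415 CPM. Other epithelial markers were low in every library: Krt19 was at 3.27 to 9.24 CPM, Krt5 at 0.540 to 1.36 CPM and Krt14 at 0.330 to 0.785 CPM. Erbb2 was at 10967 and 12594 CPM in WT, against 19776 and 19975 CPM in AXL KO, 1.69-fold higher by group and without overlap. Its log2 difference of 0.75 ± 1.05 (SE) was not called (unadjusted p = 0.502 in edgeR), and its part in the other results was not tested. That SE comes from the fit over all genes, while the libraries within each group lay close together for Erbb2. Reads of the transgene and of the mouse gene cannot be told apart here. In bulk tumour RNA, fewer cells of a type and less RNA per cell cannot be told apart either.

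Axl had by far the largest difference of the 9 genes. The gene (ENSMUSG00000002602) spans chr7:25757273-25788705 on the minus strand. Its level was 61.8 and 35.2 CPM in WT (replicates 1 and 2 in that order), against 4.75 and 4.89 CPM in AXL KO. The groups were far apart, although the WT libraries differed 1.75-fold from each other. The AXL KO libraries, with 89 and 163 reads on the gene, differed 1.03-fold, which is less than the counting error of 10.6% and 7.83% on those reads. Axl was 10.05-fold lower in AXL KO, a log2 difference of −3.33 ± 0.35 (SE) with a 95% interval from −4.22 to −2.44. By unadjusted p (0.000184) it ranked 2 of all 14330 genes, but with edgeR's quasi-likelihood test and Benjamini-Hochberg adjustment over all genes it did not pass (adjusted p = 0.9997). DESeq2 called it (adjusted p = 4.17e-13). Without WT replicate 1, which left WT replicate 2 alone in its group, the log2 difference of Axl in edgeR was −2.87. Of the 14330 genes tested edgeR called 0 (0%), and 314 (2.19%) had a p under 0.05 before adjustment. DESeq2 called 17 of the 19010 genes to which it gave an adjusted p (0.0894%).

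**Figure D1:**
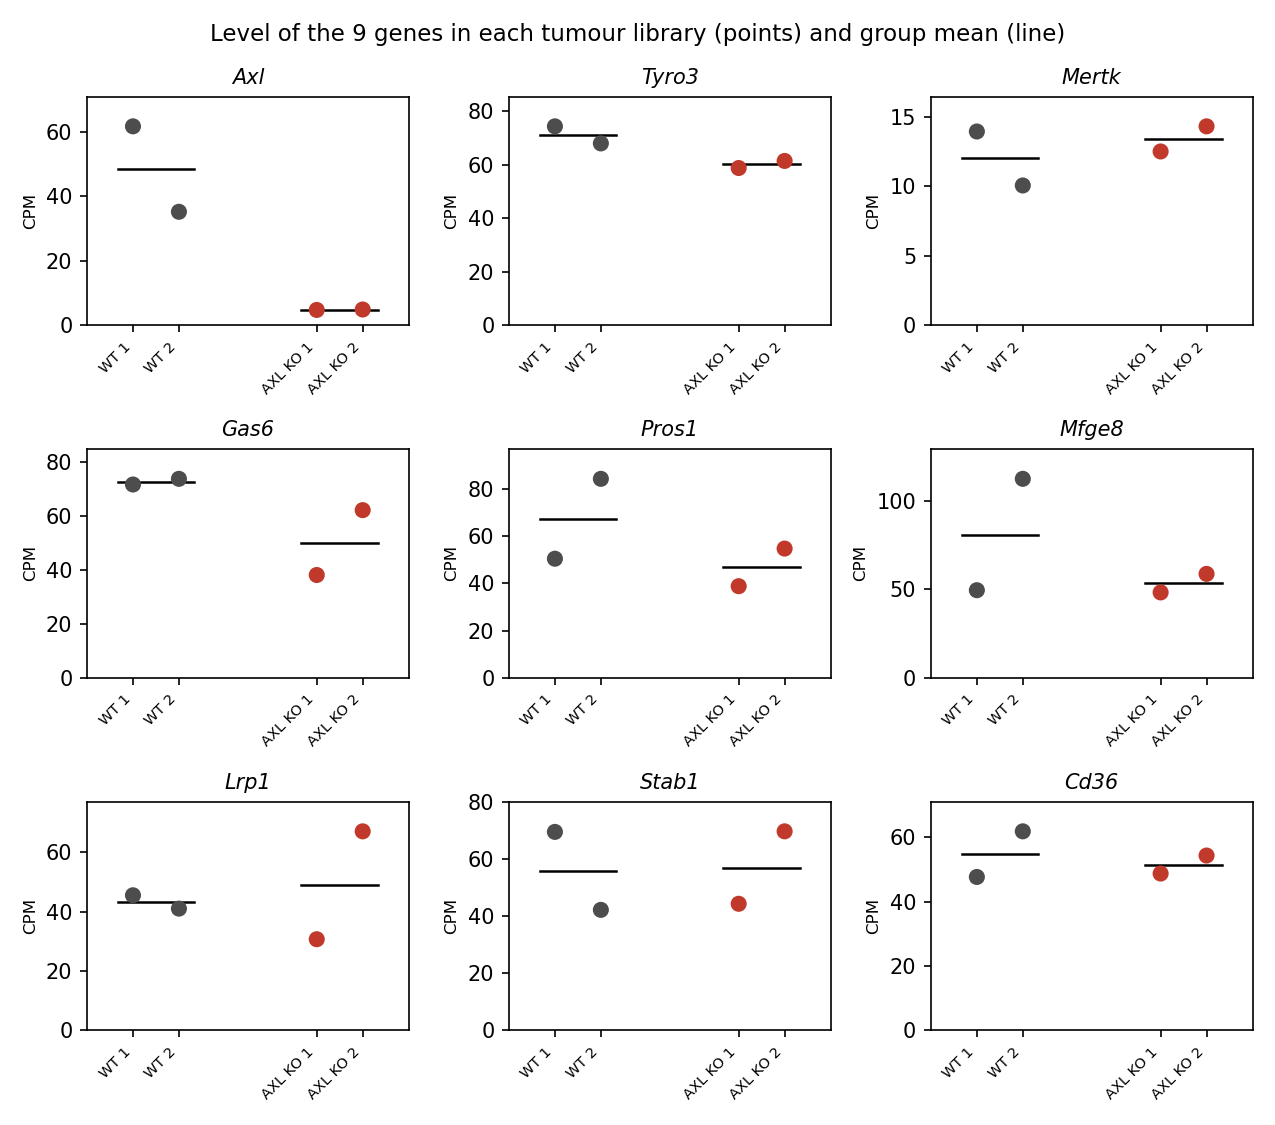
Level of each of the 9 genes in CPM (vertical axis from 0, a scale of its own per gene) in the 2 WT libraries (grey) and the 2 AXL KO libraries (red), with a line at each group mean. Axl is at 4.75 and 4.89 CPM in AXL KO, while Tyro3 and Gas6 lie lower in AXL KO without overlap and the other 6 genes overlap between groups.

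None of the other 8 genes passed the test, and none had both AXL KO libraries above both WT libraries, whereas 14.7% of all genes tested did. For 2 of the 8, Tyro3 and Gas6, each AXL KO library was lower than each WT library, as for 14.5% of all genes tested. The log2 difference was negative for 5 and positive for 3, with a median of −0.17 (all genes tested: −0.0019) and a range from −0.60 to 0.18. All 8 intervals spanned 0, and unadjusted p ran from 0.105 to 0.933. DESeq2 called 0 of the 8 as well. The choice of scaling did not move these signs: 5 were negative and 3 positive with TMM factors, DESeq2's size factors and library totals. Without WT replicate 2 there were again 5 negative and 3 positive, though the signs of 4 genes (Mertk, Mfge8, Stab1 and Cd36) had turned. Without AXL KO replicate 2 there were 7 negative and 1 positive.

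**Figure D2:**
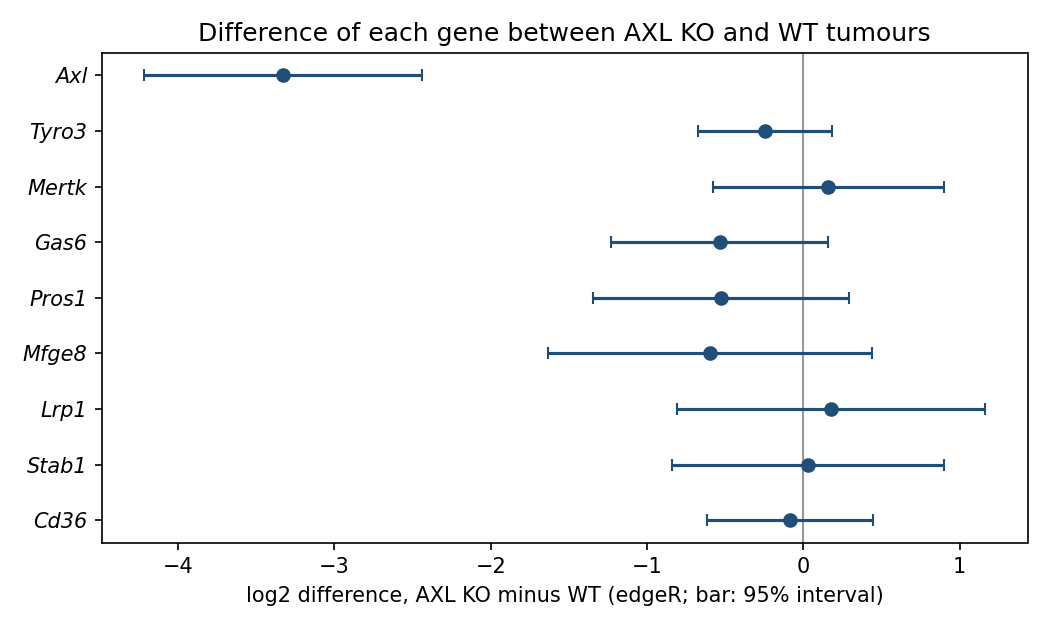
Log2 difference of AXL KO minus WT for each gene, with its 95% interval from edgeR's quasi-likelihood fit (2 libraries per group). The interval of Axl runs from −4.22 to −2.44, and those of the other 8 genes include 0.

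Tyro3 (ENSMUSG00000027298, chr2:119797733-119818104, plus strand), the other receptor with a high level, had a slightly lower group mean in AXL KO. Its level was 74.4 and 68.0 CPM in WT, against 58.8 and 61.5 CPM in AXL KO. The groups did not overlap, but the gap between them was small. This was a log2 difference of −0.24 ± 0.17 (SE), with a 95% interval from −0.67 to 0.18 and an unadjusted p of 0.204 in edgeR. A level in AXL KO above 1.14 times the WT level thus lay outside the interval of this fit. The SE was larger in DESeq2 (0.24) and with the replicate number as a block (0.25). With 2 libraries per group the limit sets no maximum. With each library left out in turn the log2 difference stayed between −0.31 and −0.18.

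Mertk (ENSMUSG00000014361, chr2:128698956-128802894, plus strand), the receptor best known from macrophages, had the lowest CPM of the 9 genes in WT. It was at 13.9 and 10.05 CPM in WT, against 12.5 and 14.3 CPM in AXL KO. WT replicate 1 lay between the AXL KO libraries, so the groups overlapped. The log2 difference was 0.16 ± 0.29 (SE), with a 95% interval from −0.58 to 0.90. The interval reaches a 1.87-fold higher level, so a moderate rise was not detectable in this design. With 192 to 477 reads on the gene, counting error was 4.58% to 7.22% per library. Without WT replicate 2 the difference was −0.054. Macrophage markers, a list of 12 genes such as Csf1r and Adgre1 that were all tested, summed to 649 and 525 CPM in WT, against 570 and 758 CPM in AXL KO. None of the 12 was at 0 in any library, and 0 were called. In both AXL KO libraries 2 of the 12 lay above and 2 below both WT libraries, beside 14.7% and 14.5% of all genes tested. Relative to that sum Mertk was at 2.15% and 1.91% in WT and at 2.19% and 1.89% in AXL KO, with the groups interleaved. Lyz2 alone held most of the sum, at 353 and 288 CPM in WT and 358 and 455 CPM in AXL KO. The percentages thus mainly set Mertk against Lyz2.

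Set per kilobase of exon, which allows levels of different genes to be compared, Axl made up a large part of the TAM receptor transcripts in WT and little in AXL KO. In CPM per kilobase Axl was at 12.3 and 7.001 in WT and at 0.944 and 0.971 in AXL KO. The sum of Tyro3 and Mertk on that scale was 15.2 and 13.3 in WT and 12.4 and 13.2 in AXL KO. Neither AXL KO library exceeded either WT library in this sum, but AXL KO replicate 2 (13.21) and WT replicate 2 (13.29) were nearly equal. The sum of all 3 receptors was 23.9 ± 5.09 in WT and 13.8 ± 0.616 in AXL KO (SD, n = 2 each), a ratio of 1.74. The share of Axl in it was 44.6% and 34.5% in WT and 7.09% and 6.85% in AXL KO.

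Within that sum, Tyro3 accounted for 43.7% and 54.1% of TAM receptor transcripts in WT and for 71.3% and 69.9% in AXL KO. Mertk accounted for 11.7% and 11.4% in WT and for 21.6% and 23.3% in AXL KO. The levels behind these shares differed far less than the total. From WT to AXL KO the group mean of Axl was lower by 8.68 CPM per kilobase, that of Tyro3 differed by −1.79 and that of Mertk by 0.325, which is 3.74% of the difference in Axl. At the upper limits of their intervals, Tyro3 and Mertk would stand 1.56 and 2.40 CPM per kilobase above their WT means, or 17.9% and 27.7% of the difference in Axl. These percentages hold for the main fit only and take the difference in Axl as fixed, so they set no maximum. With the length of the longest transcript in place of all exons, the summed difference of Tyro3 and Mertk was −2.16 in place of −1.46. Without WT replicate 1 it was −0.50, and without WT replicate 2 it was −2.42.

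**Figure D3:**
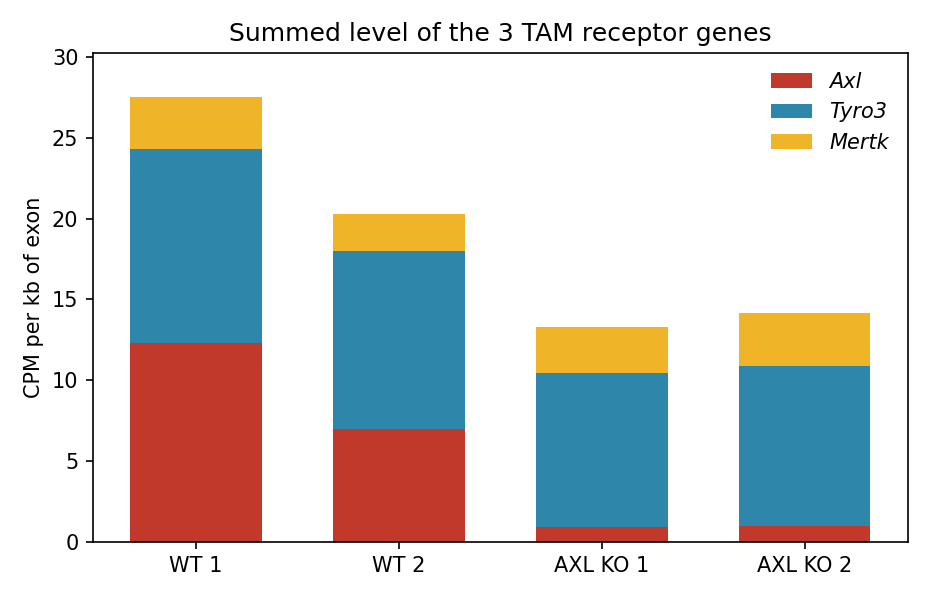
Stacked levels of Axl (red), Tyro3 (blue) and Mertk (yellow) in CPM per kilobase of exon (vertical axis from 0) in each of the 4 libraries. The total is 27.5 and 20.3 in WT and 13.3 and 14.2 in AXL KO. The blue and yellow parts together are no higher in AXL KO than in WT, and nearly equal in replicate 2 of each group.

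The ligand genes had lower group means in AXL KO. Gas6 (ENSMUSG00000031451, chr8:13465374-13494490, minus strand), which encodes the vitamin K-dependent ligand of all 3 receptors, was at 71.8 and 73.9 CPM in WT, against 38.2 and 62.3 CPM in AXL KO. The WT libraries were nearly equal and both AXL KO libraries lay below them, with replicate 1 by far the lower. In log2 units AXL KO minus WT was −0.54 ± 0.27 (SE), with a 95% interval from −1.23 to 0.16, and its unadjusted p of 0.105 was the lowest of the 8 genes. It was −0.95 without AXL KO replicate 2 and −0.23 without AXL KO replicate 1, so its size rested on which knockout library was read. The upper limit of the interval, 0.16, stands for a 1.116-fold higher level of Gas6 in AXL KO. With 2 libraries per group that limit sets no maximum. Gas6 and Tmem255b share 34 exonic bases on opposite strands.

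Pros1 (ENSMUSG00000022912, chr16:62854307-62929346, plus strand), which encodes protein S, was at 50.4 and 84.2 CPM in WT, against 38.8 and 54.7 CPM in AXL KO. WT replicate 1 lay between the AXL KO libraries, and WT replicate 2 was the highest. The log2 difference was −0.53 ± 0.32 (SE), with a 95% interval from −1.34 to 0.29. Without WT replicate 2 it was −0.11. Per kilobase, Gas6 exceeded Pros1 in every library, by 2.29-fold and 1.41-fold in WT and by 1.58-fold and 1.83-fold in AXL KO. The ligand transcripts summed to 40.5 and 49.6 CPM per kilobase in WT and to 24.5 and 37.8 in AXL KO, against which the receptors' sum was smaller in each library. The ratio of ligand to receptor transcripts was 1.47 and 2.45 in WT and 1.84 and 2.67 in AXL KO, with overlap.

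Fibroblast and pericyte markers moved with part of this pattern. The 8 genes of that list, among them the collagen genes Col1a1, Col1a2 and Col3a1, summed to 725 and 1053 CPM in WT, against 325 and 981 CPM in AXL KO. All 8 were tested, none was at 0 in any library, and 0 were called. Log2 differences were negative for 6 and positive for 2, Rgs5 (0.22) and Pdgfra (0.10), neither of which was lowest in AXL KO replicate 1. The collagen genes weigh most in the sum, with Col3a1 alone at 257 and 391 CPM in WT, against 87.6 and 375 CPM in AXL KO. AXL KO replicate 1 was the lowest library for the list, with a mean log2 deviation of −0.78 against −0.054 to 0.42 in the other libraries. Among the 9 genes it was also the lowest for Axl, Tyro3, Gas6, Pros1, Mfge8 and Lrp1. For Axl that was by little (4.75 CPM, against 4.89 CPM in AXL KO replicate 2). The same held for Mfge8 (48.2 CPM, against 49.4 CPM in WT replicate 1). The share of all genes tested that were lowest in this library was not counted. As a percentage of the summed markers, Gas6 was at 9.90% and 7.02% in WT and at 11.7% and 6.35% in AXL KO, so its groups overlapped on that scale. Pros1 was at 6.95% and 8.003% in WT and at 11.9% and 5.57% in AXL KO. Axl was at 8.52% and 3.35% in WT and at 1.46% and 0.498% in AXL KO, still without overlap. The part of stromal content in the differences of Gas6 and Pros1 was not tested.

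**Figure D4:**
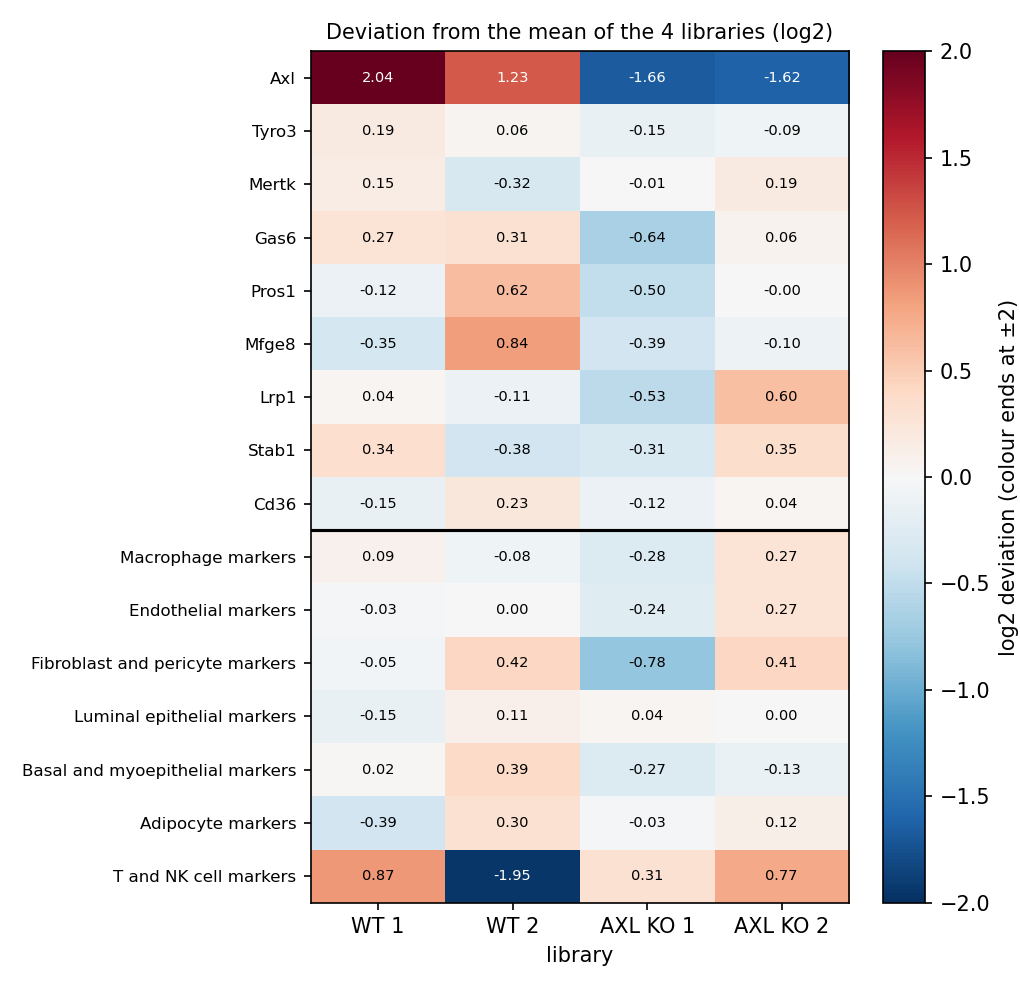
Deviation of each gene (upper 9 rows, log2 CPM) and of each list of cell type markers (lower 7 rows, mean over its tested genes) from its own mean over the 4 libraries, in log2 units, with red above and blue below the mean. AXL KO replicate 1 is lowest for fibroblast and pericyte markers (−0.78), and WT replicate 2 is lowest for T and NK cell markers (−1.95).

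Mfge8 (ENSMUSG00000030605, chr7:79133768-79149060, minus strand) encodes the milk fat globule protein that links phosphatidylserine on dying cells to integrins on the engulfing cell. Its level was 49.4 and 112 CPM in WT, against 48.2 and 58.6 CPM in AXL KO. WT replicate 2 alone was high, and the other 3 libraries lay close together. The fitted log2 difference was −0.60 ± 0.41 (SE), with a 95% interval from −1.63 to 0.44, and it was 0.11 without WT replicate 2. Luminal epithelial markers without Erbb2 summed to 3826 and 4273 CPM in WT, against 3717 and 3521 CPM in AXL KO. Relative to that sum Mfge8 was at 1.29% and 2.63% in WT and at 1.30% and 1.67% in AXL KO.

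Among the uptake receptors, Lrp1 (ENSMUSG00000040249, chr10:127538161-127621148, minus strand) encodes a large endocytic receptor that also takes up calreticulin-marked dying cells. It was at 45.5 and 41.0 CPM in WT, against 30.7 and 67.1 CPM in AXL KO. The AXL KO libraries lay on either side of both WT libraries and differed 2.19-fold. The log2 difference of 0.18 ± 0.39 (SE), with a 95% interval from −0.81 to 1.16, turned to −0.51 without AXL KO replicate 2. Of the 8 genes, Lrp1 had the highest upper limit, a 2.24-fold higher level. As a percentage of the fibroblast and pericyte marker sum, Lrp1 was at 6.28% and 3.90% in WT and at 9.45% and 6.84% in AXL KO. On that scale, in which the collagen genes weigh most, both AXL KO libraries were above both WT libraries, unlike on the CPM scale.

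Stab1 (ENSMUSG00000042286, chr14:31139013-31168641, minus strand), which encodes the scavenger receptor stabilin-1 of macrophages and sinusoidal endothelium, was at 69.5 and 42.2 CPM in WT, against 44.3 and 69.7 CPM in AXL KO. One library of each group was high and one was low. The log2 difference was 0.030 ± 0.34 (SE), with a 95% interval from −0.84 to 0.90, and it was −0.28 without WT replicate 2 and −0.35 without AXL KO replicate 2. Stab1 shares 112 exonic bases with Nt5dc2 on the opposite strand. Nt5dc2 was at 4.77 and 17.9 CPM in WT, against 4.49 and 6.51 CPM in AXL KO. Endothelial markers, a list of 8 genes such as Pecam1 and Cdh5, summed to 132 and 131 CPM in WT, against 114 and 154 CPM in AXL KO, with 0 called. Relative to that sum Stab1 was at 52.6% and 32.1% in WT and at 38.8% and 45.3% in AXL KO.

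Cd36 (ENSMUSG00000002944, chr5:17781690-17888801, minus strand) encodes a scavenger receptor and fatty acid transporter of macrophages, adipocytes and capillary endothelium. It was at 47.6 and 61.8 CPM in WT, against 48.7 and 54.3 CPM in AXL KO. The AXL KO libraries lay inside the range of the WT libraries. This was a log2 difference of −0.087 ± 0.21 (SE), with a 95% interval from −0.62 to 0.44, and 0.11 without WT replicate 2. Adipocyte markers summed to 332 and 357 CPM in WT, against 330 and 335 CPM in AXL KO. Cd36 stood at 14.3% and 17.3% of that sum in WT and at 14.8% and 16.2% in AXL KO. Pnpla2 alone held most of each sum, at 247 and 192 CPM in WT and 199 and 195 CPM in AXL KO. With each marker weighed equally the libraries differed more: the mean log2 deviation of the list was −0.39 and 0.30 in WT, against −0.029 and 0.12 in AXL KO.

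Gas6 headed the order of the 9 genes per kilobase in both groups. In WT, it stood at 28.6 CPM per kilobase, followed by Mfge8 at 17.2, Pros1 at 16.5 and Cd36 at 15.2, whose ranges overlapped. Tyro3 at 11.5 and Axl at 9.64 overlapped as well, and Stab1 at 5.43, Mertk at 2.77 and Lrp1 at 2.44 followed, the last 2 with overlap. In AXL KO, Gas6 at 19.7 overlapped with Cd36 at 14.3, and Pros1 at 11.4, Mfge8 at 11.4 and Tyro3 at 9.70 followed. Axl moved from place 6 in WT to place 9 in AXL KO, at 0.958 CPM per kilobase, below Stab1 at 5.54, Mertk at 3.09 and Lrp1 at 2.76.

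The 9 lists of other genes of the same pathway, 77 genes in all, gave 67 tested genes. Beside 0% of all genes tested in edgeR and 0.0894% in DESeq2, 0 of these 67 were called. Their smallest unadjusted p was 0.0749, 39 had positive and 28 negative log2 differences, and their median was 0.049. For 14 of the 67 (20.9%) each AXL KO library was higher than each WT library, and for 8 (11.9%) each was lower, beside 14.7% and 14.5% of all genes tested.

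Of 18 other uptake receptors 11 were tested, 4 with positive and 7 with negative differences (median −0.031). The integrin gene Itgb3, whose product pairs with the alpha V chain to bind MFG-E8, was at 91.8 and 85.0 CPM in WT, against 181 and 98.3 CPM in AXL KO. Its groups did not overlap, and AXL KO replicate 1 alone was far above the rest: the log2 difference of 0.66 was 0.15 without that library. The phosphatidylserine receptor gene Cd300lf was at 3.74 and 2.67 CPM in WT, against 4.86 and 5.22 CPM in AXL KO. Scarb1, a scavenger receptor gene, was at 91.1 and 120 CPM in WT, against 77.4 and 86.8 CPM in AXL KO. The 7 genes with too few reads were Stab2, Havcr1, Adgrb1, Megf10, Marco, Olr1 and Ager.

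All 8 other bridging proteins were tested, 6 with positive and 2 with negative differences (median 0.075). Lgals3, the galectin-3 gene, was at 22.5 and 78.6 CPM in WT, against 17.1 and 23.1 CPM in AXL KO, with WT replicate 2 alone far above the rest. The complement genes C1qb and C1qc had log2 differences of 0.24 and 0.20, which turned to −0.071 and −0.090 without WT replicate 2. Of 15 engulfment signalling genes 9 had positive and 6 negative differences (median 0.062). Gulp1, the engulfment adaptor gene, was at 7.67 and 3.04 CPM in WT, against 15.8 and 8.04 CPM in AXL KO. Elmo2, whose product activates RAC with DOCK1, was at 47.0 and 62.8 CPM in WT, against 38.0 and 42.0 CPM in AXL KO. Abca7, a lipid transporter gene, was at 8.23 and 10.4 CPM in WT, against 5.61 and 6.66 CPM in AXL KO.

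No gene of phosphatidylserine exposure or of do-not-eat signals was called, beside 0 (0%) of the 14330 genes tested in edgeR. Of 9 genes of phosphatidylserine exposure 7 were tested, 5 with positive and 2 with negative differences (median 0.16). Tmem30a, a flippase subunit gene, and the scramblase gene Plscr1 had log2 differences of 0.22 and −0.45. Of 5 do-not-eat signals 4 were tested, 3 with positive and 1 with a negative difference (median 0.19). Cd47, the do-not-eat ligand gene, was at 45.9 and 46.1 CPM in WT, against 56.7 and 51.9 CPM in AXL KO. Sirpa, the gene of its receptor, was at 156 and 162 CPM in WT, against 143 and 143 CPM in AXL KO, and Pirb had a log2 difference of 0.30, which turned to −0.82 without AXL KO replicate 2.

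Genes that act on TAM ligands and receptors were likewise not called, beside 0% of all genes tested in edgeR. Both shedding protease genes were tested and had positive differences, with Adam17 at 0.057 and Adam10 at 0.027. Neither sign was stable: Adam17 was at −0.0083 without AXL KO replicate 1, and Adam10 at −0.23 without WT replicate 2 and −0.083 without AXL KO replicate 2. Of 4 genes of vitamin K carboxylation, the step that GAS6 and protein S need to bind phosphatidylserine, 2 had positive and 2 negative differences. Vkorc1 was at 28.5 and 27.3 CPM in WT, against 41.9 and 29.4 CPM in AXL KO, Ggcx had a log2 difference of 0.0996 (−0.055 without WT replicate 1 and −0.0065 without AXL KO replicate 1), and Nqo1 was high in WT replicate 2 alone, at 17.4 CPM against 6.62 to 7.47 CPM elsewhere. Of 6 LXR and PPAR regulators, nuclear receptors that control uptake genes such as Mertk and Cd36, 3 were positive and 3 negative (median −0.025). Rxra was at 100.4 and 106 CPM in WT, against 73.9 and 85.1 CPM in AXL KO, Rxrb had a log2 difference of −0.28 and Pparg one of 0.54. Of 10 TAM signalling partners 5 were positive and 5 negative. Socs1 was at 1.64 and 0.471 CPM in WT, against 1.76 and 2.999 CPM in AXL KO, and the interferon receptor gene Ifnar2 had a log2 difference of 0.28.

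No tested neighbour of Axl on chromosome 7 had a difference near the size of its own, the largest being −0.99. Within 500 kb of the start of Axl 15 other genes were tested, of which 0 were called and 0 had an unadjusted p under 0.05. Their median log2 difference was −0.14, with 12 negative and 3 positive. Each AXL KO library was lower than each WT library for 5 of the 15, and higher for 0, beside 14.5% and 14.7% of all genes tested. The 3 with the smallest p were Pafah1b3, B3gnt8 and B9d2, at log2 differences of −0.93, −0.99 and −0.49. Pafah1b3, an acetylhydrolase subunit gene, was at 19.9 and 38.2 CPM in WT, against 13.4 and 17.1 CPM in AXL KO. B3gnt8, a glycosyltransferase gene, was at 2.34 and 3.30 CPM in WT, against 1.496 and 1.35 CPM in AXL KO. Hnrnpul1, the nearest tested neighbour on one side, was at 186 and 159 CPM in WT, against 153 and 160 CPM in AXL KO. Cyp2s1, a cytochrome P450 gene and the nearest tested on the other side, was at 0.982 and 1.52 CPM in WT, against 0.534 and 0.960 CPM in AXL KO. The last 2 genes were named for their position, after their values were seen.

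**Figure D5:**
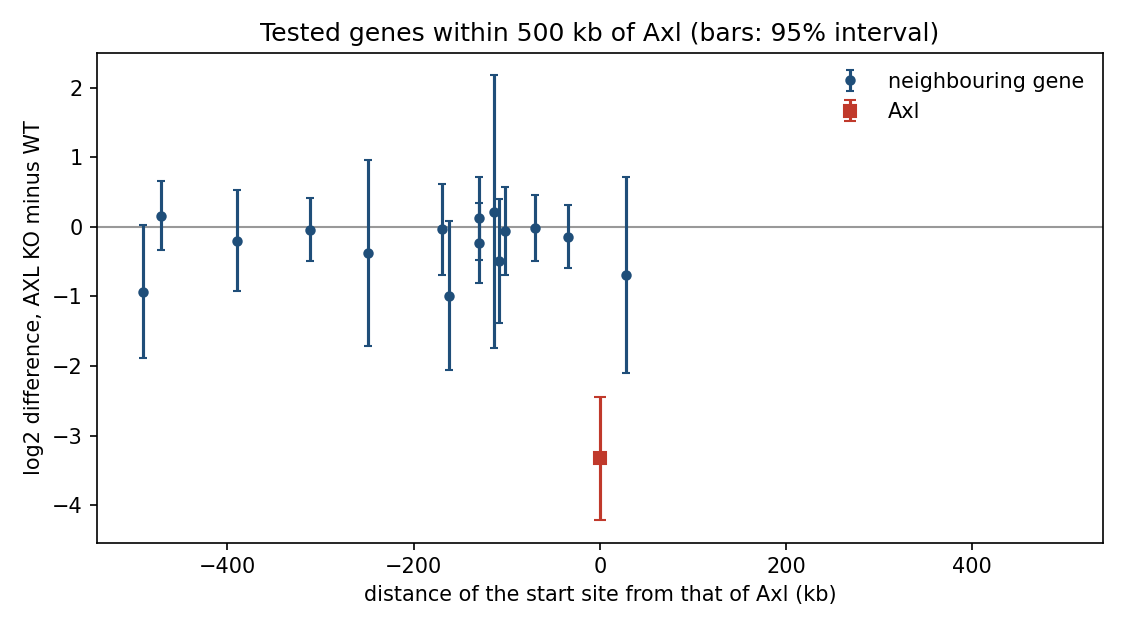
Log2 difference of AXL KO minus WT, with 95% intervals, for the 15 tested genes whose start lies within 500 kb of that of Axl (blue) and for Axl itself (red), by distance in kilobases. Axl is at −3.33, and the intervals of all 15 neighbours include 0.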

How the data were processed

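The deposited files hold 1 raw read count per gene for each of 4 tumour libraries. Per the submitters' processing notes the build was GRCm38 and the tools were HTSeq 0.5.3, TopHat2 2.0.10, DESeq2 1.4.5 and CASAVA 1.8, with no roles named. Neither the annotation release nor the strand setting is given there, so reads from opposite-strand genes that overlap cannot be separated. CPM values were computed here from the counts. The 5 summary lines that name no gene were left out. Alignments that were not unique took 23.2% to 28.1% of all counts (gene and summary lines together), reads outside genes 5.27% to 8.11% and ambiguous reads 0.635% to 1.85%.

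Symbols, positions and exon lengths came from GENCODE M21 (GRCm38), which matched 36429 of 38293 identifiers. Groups and replicate numbers came from the sample titles. All genes were fitted together with edgeR 4.0.16 in R 4.3.3 (filterByExpr, TMM, glmQLFit with legacy=FALSE, glmQLFTest), with Benjamini-Hochberg adjustment over the 14330 genes tested and a threshold of 0.05. The 95% intervals are unadjusted, from the fitted difference, its SE and the fit's degrees of freedom. An exact permutation test of 2 against 2 cannot go below p = 0.333 and was not used. Per-kilobase levels divide CPM by the union of exons.

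The members and lists were chosen with earlier results of these data known. Named were all members, up to 3 genes with the smallest p in each other pathway list and near Axl, and the 2 genes most like each member. Some genes that this rule names are not reported here. Alternatives were DESeq2 size factors, library totals, other low-count filters, DESeq2 1.42.0, limma-voom (limma 3.58.1), the replicate number as a block and each library left out. The fit was tested on simulated counts.

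Equal replicate numbers in the titles were not taken as pairs, since the labels name no shared animal, litter or day.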

Additional observations from a re-analysis of the deposited data

How the results depend on the processing

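Of all genes tested, edgeR called 0 with TMM factors, DESeq2 size factors, library totals, either other low-count filter, or the replicate block, and limma-voom called 0. Before adjustment, 314 genes had a p under 0.05 with edgeR, 285 with limma-voom and 571 with the replicate block. DESeq2 called 17. With 1 library left out edgeR called 0 to 216, the 216 without WT replicate 1. Axl was called by DESeq2, at −3.34, and in edgeR without WT replicate 1. With 1 library left out its log2 difference ran from −3.68 to −2.87. With the replicate block it was −3.27 and was not called (adjusted p = 0.108). Over genes, the deviations of equal replicate numbers in both groups correlated at r = −0.045. None of the other 8 genes was called under any of these alternatives. With 1 library left out the sign turned for Mertk (−0.054 to 0.42), Mfge8 (−1.07 to 0.11), Lrp1 (−0.51 to 0.63), Stab1 (−0.35 to 0.44) and Cd36 (−0.26 to 0.11). Tyro3 (−0.31 to −0.18), Gas6 (−0.95 to −0.23) and Pros1 (−0.85 to −0.11) stayed negative. The cause was not tested. A group left with 1 library is assumed to vary like the other group. Counting error on a member was at most 10.6% of its reads in any library, beside a biological coefficient of variation of 0.31 over all genes.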

Other observations

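The genes whose pattern over the 4 libraries was most like that of each member were taken from 9504 tested genes with a mean of at least 10 CPM and an established symbol. Likeness was the root mean square distance between log2 CPM values, each gene centred on its own mean. For Axl the nearest genes were far away: Ramp1, the gene of a chaperone of calcitonin-type receptors, at 0.93 and the homeobox gene Lmx1b at 0.96, with 0 genes within 0.1. Ramp1 was at 15.3 and 15.5 CPM in WT, against 6.196 and 4.50 CPM in AXL KO. Tyro3 and Mertk varied so little over the libraries (by 0.34 and 0.51 on the log2 scale) that 727 and 633 genes lay within 0.1, led by Dda1 and Ube2f for Tyro3 and by Alg2 and Acsl5 for Mertk. For Cd36 there were 438, led by the translation factor gene Eif5a and Nfya.

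Few genes resembled the members that varied more. Gas6 had 9 genes within 0.1, led by Arhgap19 at 0.055 and Zyx, the gene of the focal adhesion protein zyxin, at 0.062. Lrp1 had 5, led by the transcription factor gene Zeb2 at 0.055 and the clock gene Per1 at 0.068. Stab1 had 34, led by Maf, a transcription factor gene, at 0.028 and Shank2 at 0.043. Maf was at 15.8 and 9.69 CPM in WT, against 10.1 and 15.3 CPM in AXL KO. Pros1 had 49, led by Serpina3n at 0.015 and Apc at 0.021, and Mfge8 had 49, led by Sgo2a at 0.028 and Map3k2 at 0.032. With 4 libraries such likeness describes these tumours only.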
